A study of Mus musculus with 16 samples.

Results

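The genes described here are 7 receptors through which the autonomic nerves act on the heart: the muscarinic acetylcholine receptors Chrm1, Chrm2, Chrm3 and Chrm4, the β1-adrenergic receptor Adrb1 and the α1-adrenergic receptors Adra1a and Adra1b. They were picked by name from earlier results of the same arrays, and every array probe assigned to them by its transcript accession was kept. This gave 12 probes of 41174 that are not controls. A probe entered the tests when it was above background on all 4 arrays of 1 group or more. At most 1 array per group could lack a value because its spot was flagged as an outlier. This left 10 probes of 6 of these genes among 20065 genes tested. The only Chrm3 probe and the second Chrm1 probe were not above background on any array and were left out of the tests.

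Hearts of mice lacking the mineralocorticoid receptor (MR), encoded by Nr3c2, in cardiomyocytes were compared with hearts of their littermates at 1 and 2 months of age. MRflox mice carried floxed MR alleles and no Cre. The cardioMRKO mice carried the same alleles and in addition expressed Cre from the cardiomyocyte-specific αMHC promoter, so that the loss of the receptor and the presence of Cre cannot be told apart. The mice were males of the C57BL/6 strain, with 4 hearts and 4 arrays in each of the 4 groups. The floxed allele was shared by every group, and the other cells of the heart kept the gene. RNA came from whole hearts, so fewer cells of a type and less RNA per cell cannot be told apart in any value below. All 4 arrays of any group lay together on a single slide and no slide held arrays from more than 1 group, which means that an effect of the slide cannot be told apart from one of genotype or age.

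Parasympathetic nerves release acetylcholine onto muscarinic receptors, and sympathetic nerves release noradrenaline onto adrenergic receptors. Chrm2, the main muscarinic receptor of cardiomyocytes, couples to inhibitory G proteins, lowers cyclic AMP and opens the potassium channel formed by Kcnj3 and Kcnj5, which slows the pacemaker. Adrb1, the main β receptor of cardiomyocytes, couples to the stimulatory G protein, adenylyl cyclase and protein kinase A and raises rate and force, while Chrm1, Chrm3, Adra1a and Adra1b couple to Gq and phospholipase C. Chrm4, like Chrm2, couples to inhibitory G proteins.

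A signal is the processed fluorescence of a spot on a linear scale, with background already subtracted. A level is the log2 of that signal minus the log2 of the 75th percentile of its array, so a level of 0 is the 75th percentile of the array. Across arrays that percentile lay between 527.1 and 1091.6, and 62.54% to 71.65% of probes were above background. Differences are differences of mean levels from 1 limma fit to all 16 arrays, and a gene is said to have passed the test when its Benjamini-Hochberg adjusted p over all genes was under 0.05. Levels of different probes are not comparable with each other. On the arrays 8 of 8 cardiomyocyte markers were above background throughout. Nr3c2 itself had levels of -4.46 ± 0.25 in MRflox and -4.65 ± 0.13 in cardioMRKO hearts at 1 month, and of -3.71 ± 0.19 and -4.13 ± 0.23 at 2 months (SD, n = 4). The Nr3c2 difference was -0.19 (limma adjusted p = 0.973) and -0.42 (adjusted p = 0.129), so the deletion was not visible as a change that passed the test in whole-heart RNA. Against the mean over all arrays, the 10 spike-in probes had a median deviation of -0.76 (log2) on replicate 4 of MRflox at 2 months and of -0.54 on replicate 3 of cardioMRKO at 2 months. The other arrays lay between -0.26 and 0.32.

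Of the 10 tested probes, the Chrm1 probe had the largest genotype difference at each age. On its detected probe, A_52_P85372, the signals of the 4 MRflox hearts at 1 month were 41.9, 70.1, 61.1 and 54.4, and all 4 arrays were above background. The 4 cardioMRKO hearts at 1 month gave 11.7, 16.2, 25.3 and 18.5, with 2 of 4 arrays above background. The 4 MRflox hearts at 2 months gave 3.66, 11.6, 15.4 and 4.67, again with 2 of 4 above background. The 4 cardioMRKO hearts at 2 months gave 47.0, 61.4, 83.8 and 61.6, all above background. The signal was therefore high in the younger controls and the older cardioMRKO hearts and low in the other groups, and no array of a high group overlapped with any array of a low group.

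As levels, Chrm1 was at -3.65 ± 0.21 in MRflox and -5.41 ± 0.58 in cardioMRKO hearts at 1 month, and at -6.33 ± 1.00 and -3.66 ± 0.29 at 2 months (SD, n = 4). The high groups overlapped with each other, and so did the low groups. At 1 month the cardioMRKO level was lower than that of MRflox by 1.76 on the log2 scale (difference -1.76, SE 0.40, 95% interval -2.61 to -0.91), which is 3.39-fold. That difference did not pass the test over all genes (limma adjusted p = 0.232, unadjusted p = 0.000561), although all 4 cardioMRKO hearts lay below all 4 controls. At 2 months the difference had the opposite sign, 2.67 (95% interval 1.82 to 3.52), or 6.36-fold. The difference of the genotype differences was 4.43 (95% interval 3.22 to 5.64). From 1 to 2 months the level went down by 2.67 in MRflox hearts (-2.67, 95% interval -3.53 to -1.82) and up by 1.76 in cardioMRKO hearts (95% interval 0.90 to 2.61). All of these values are descriptions, since Chrm1 was picked for this pattern.

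**Figure D1:**
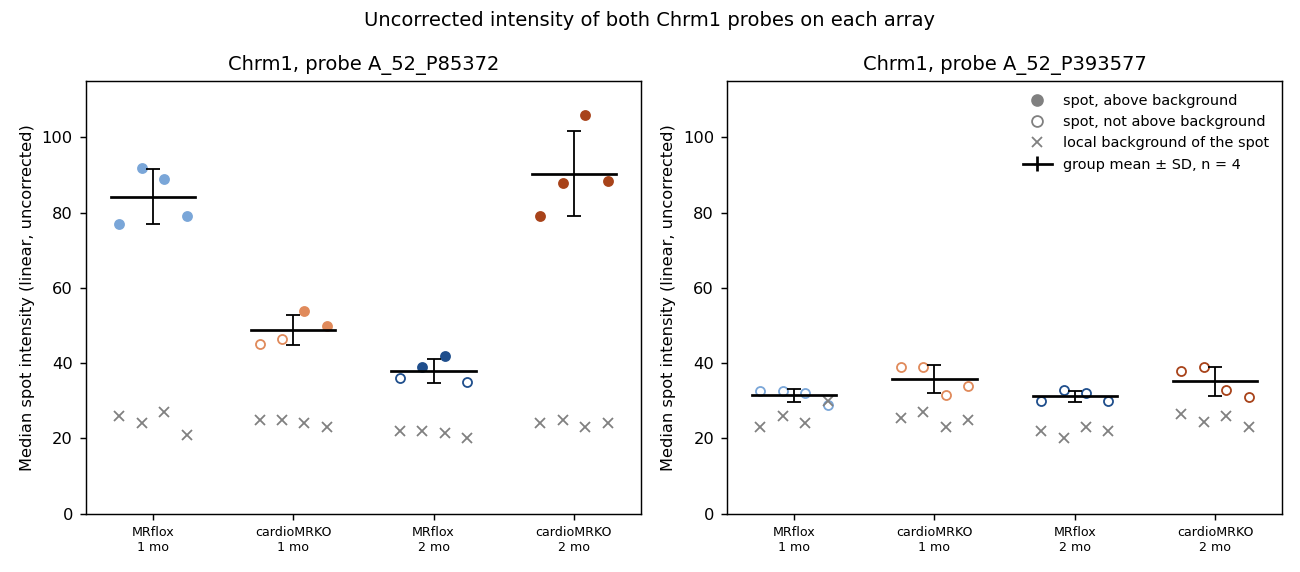
Median spot intensity (linear scale, before any correction) of both Chrm1 probes on each array, by group of 4, with crosses for the local background of each spot, filled circles for spots above background and bars for the group mean ± SD. On the left probe the MRflox spots at 1 month (77 to 92) and the cardioMRKO spots at 2 months (79 to 106) lie above all others (35 to 54), while the right probe stays between 29 and 39 on all 16 arrays.

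The same order was present before any correction. The plot of uncorrected intensities shows spot medians of 77 to 92 in MRflox and 45 to 54 in cardioMRKO hearts at 1 month, and of 35 to 42 and 79 to 106 at 2 months, with a local background between 20 and 27 around those spots. None of the 16 spots was called an outlier by the scanner software. The second Chrm1 probe, A_52_P393577, which names another transcript record of the gene, had spot medians between 29 and 39, processed signals between 1.94 and 8.36, and was above background on 0 of 16 arrays. No fold is given for it. At 1 month its levels overlapped between genotypes (exact permutation test, two-sided p = 0.0571, where 0.0286 is the smallest p that 4 against 4 arrays allow). The Chrm1 pattern thus rests on 1 dim probe of a pair that did not show the same signal. Among 74 other tested probes within 5 rows and columns of its spot, the median difference of the genotype differences was -0.07 (range -1.76 to 0.67), against 4.43 for Chrm1.

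With the normexp background correction, which adds an offset of 50 to every signal and so compresses dim probes, the Chrm1 difference was -0.59 at 1 month and 0.39 at 2 months. Both kept their sign. With array weights the difference at 1 month was -1.79 (limma adjusted p = 0.017), and under the other alternatives the adjusted p lay between 0.0666 and 0.645. Since Chrm1 was picked with the values of all 4 groups in view, none of these p values is independent evidence of a difference. Without any 1 array the difference stayed between -1.95 and -1.53 at 1 month and between 2.30 and 3.04 at 2 months.

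Few genes shared this arrangement. In 18 of 20065 genes tested (0.0897%) all 8 arrays of MRflox at 1 month and cardioMRKO at 2 months lay above the other 8, and in 3 genes (0.015%) they lay below. Of the 18, 4 have a gene symbol, as do 74.6% of all genes tested: Chrm1, the focal adhesion adaptor Pxn (paxillin), Ubac2 and 1700020D05Rik. In 43 genes (0.214%) the groups did not overlap at either age and cardioMRKO was lower at 1 month and higher at 2 months, and in 23 (0.115%) the reverse held. Over the 16 arrays the genes with a symbol whose levels were most like that of Chrm1 were Myh8, a myosin heavy chain of perinatal skeletal muscle (Pearson r = 0.928), Gm5766 (r = 0.923) and Ldhal6b, a lactate dehydrogenase-like gene (r = 0.91). Myh8 had mean levels of 7.08 and 6.36 in MRflox and cardioMRKO hearts at 1 month and of 5.62 and 6.91 at 2 months, in the same order as Chrm1. These correlations describe arrays that share groups and slides and carry no test.

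Chrm2 did not follow Chrm1. Its signals in MRflox hearts at 1 month were 111, 117, 93.8 and 110, and in cardioMRKO hearts of that age 160, 158, 112 and 86.6. At 2 months the MRflox hearts gave 118, 106, 107 and 45.7, and the cardioMRKO hearts 133, 99.8, 103 and 99.5. The probe was above background on every array and the groups overlapped in every comparison. The genotype difference was 0.15 at 1 month (SE 0.24, 95% interval -0.36 to 0.67, limma adjusted p = 1) and -0.11 at 2 months (95% interval -0.62 to 0.41). The age differences were -0.05 in MRflox (95% interval -0.56 to 0.47) and -0.30 in cardioMRKO hearts (95% interval -0.82 to 0.21). The intervals leave room for changes of up to about 0.8 on the log2 scale, so equal levels are not shown. The lowest Chrm2 level of each 2-month group, -3.53 and -3.40, was on the array with low spike-in signal. Without those arrays the difference at 2 months was -0.18.

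The single probe for Chrm3, a receptor known from smooth muscle and glands, gave signals from 2.07 to 8.0 and was above background on 0 of 16 arrays. Its group mean levels lay between -7.88 and -7.33. At 1 month its levels overlapped between genotypes (exact permutation test, two-sided p = 0.286), and no fold is given because both groups were at background.

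Chrm4 was dim but detected. The signals of the probe used for the gene, A_52_P88054, were 27.5, 23.0, 21.9 and 12.7 in MRflox and 27.5, 20.1, 26.8 and 13.6 in cardioMRKO hearts at 1 month, with 3 of 4 arrays above background in each group. At 2 months they were 44.9, 31.1, 34.4 and 19.1 in MRflox and 40.7, 25.3, 49.6 and 26.6 in cardioMRKO hearts, all above background. The probe thus entered the tests only through the older hearts. The older hearts were higher on this probe, by 0.83 in MRflox (95% interval 0.29 to 1.38, groups overlapping) and by 0.60 in cardioMRKO (95% interval 0.05 to 1.14, all 4 older hearts above all 4 younger ones). The genotype difference was -0.02 at 1 month (SE 0.25, 95% interval -0.56 to 0.53, limma adjusted p = 1) and -0.25 at 2 months (95% interval -0.80 to 0.29). The second Chrm4 probe, A_51_P418325, gave another picture. At 1 month it was above background on 2 of 4 MRflox and 3 of 4 cardioMRKO arrays, and at 2 months on 4 and 3 of 4. This probe entered the tests only through MRflox hearts at 2 months, where it was highest, so its differences are descriptions. It was higher by 1.23 in the older MRflox hearts (95% interval 0.54 to 1.92) and differed by -0.11 in cardioMRKO hearts (95% interval -0.80 to 0.58), and at 2 months all 4 cardioMRKO hearts lay below all 4 controls (-1.06, 95% interval -1.75 to -0.37). The 2 dim probes thus gave genotype differences of unlike size at 2 months, and with their mean as the level the difference was -0.66.

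**Figure D2:**
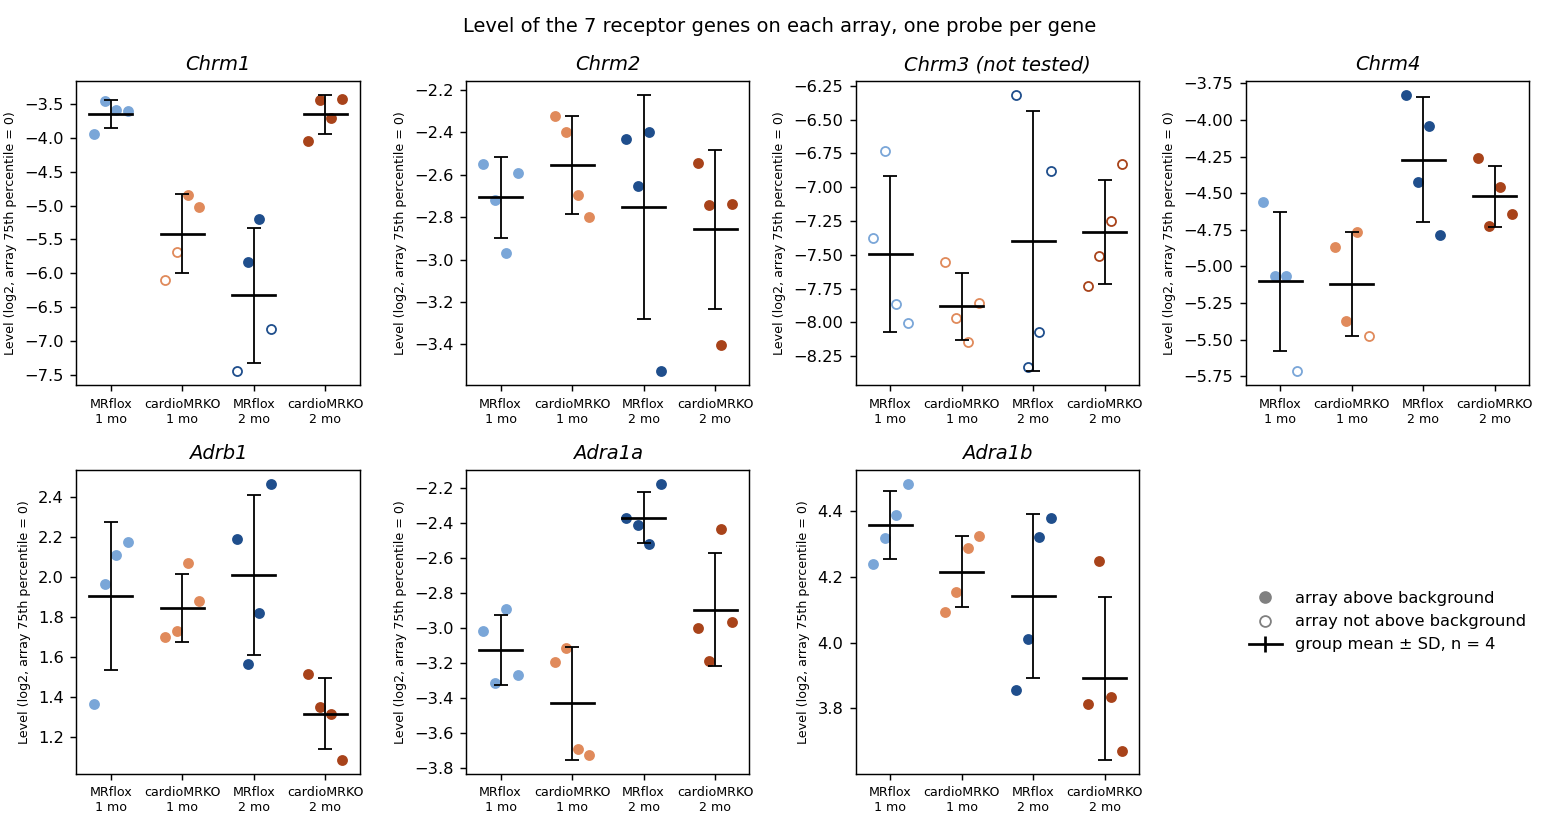
Level (log2 signal above or below the array's own 75th percentile) of 1 probe of each of the 7 receptor genes on each of the 16 arrays, with filled circles for arrays above background, open circles for arrays not above background and bars for the group mean ± SD (n = 4). Chrm1 is high in MRflox hearts at 1 month and cardioMRKO hearts at 2 months, Adrb1 is lowest in cardioMRKO hearts at 2 months, Adra1a is highest in MRflox hearts at 2 months, and the vertical scale differs between panels.

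Adrb1 was lower in the older cardioMRKO hearts on 1 of its 2 probes. On the brighter probe, A_52_P322181, the levels at 1 month were 1.36, 1.96, 2.11 and 2.17 in MRflox and 1.70, 1.73, 2.07 and 1.88 in cardioMRKO hearts. At 2 months they were 2.19, 1.56, 1.82 and 2.47 in MRflox and 1.51, 1.35, 1.31 and 1.08 in cardioMRKO hearts, so that all 4 cardioMRKO hearts lay below all 4 controls. The gap between the lowest control and the highest cardioMRKO heart was small, and before scaling the signals of these groups overlapped (1970 to 2917 and 1409 to 2711). The genotype difference was -0.06 at 1 month (SE 0.20, 95% interval -0.49 to 0.38, limma adjusted p = 1) and -0.69 at 2 months (95% interval -1.13 to -0.26), a 1.62-fold lower level. The difference of these differences was -0.64 (95% interval -1.25 to -0.02). Between ages the level differed by 0.11 in MRflox (95% interval -0.33 to 0.54) and by -0.53 in cardioMRKO hearts (95% interval -0.97 to -0.09).

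The dimmer Adrb1 probe, A_51_P203827, did not show this: its genotype difference was -0.14 at 2 months (95% interval -0.81 to 0.53), with all groups overlapping. On that probe the MRflox replicate with low spike-in signal was the lowest of its group (-3.07), and the cardioMRKO replicate with low spike-in signal was the highest of its group (-1.37), whereas on the brighter probe that MRflox replicate was the highest. Without both arrays the brighter probe differed by -0.54 at 2 months, and with the mean of both probes as the level the difference on all arrays was -0.42. The genes with levels most like Adrb1 were Mrpl45 (r = 0.912), a mitochondrial ribosomal protein, Magoh (r = 0.889), an exon junction protein, and Atp6v1g1 (r = 0.861), a proton pump subunit.

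Both Adra1a probes had higher mean levels in older hearts and lower mean levels in cardioMRKO hearts, but the genotype difference at 1 month did not pass the test and the signals before scaling overlapped between genotypes at both ages. The signals of A_52_P424778 were 80.0, 77.5, 99.0 and 69.2 in MRflox and 87.7, 96.5, 56.2 and 45.7 in cardioMRKO hearts at 1 month. At 2 months they were 123, 125, 98.4 and 117 in MRflox and 97.6, 73.4, 202 and 85.3 in cardioMRKO hearts. In levels all 4 MRflox hearts at 2 months lay above all 4 at 1 month, by 0.75 (95% interval 0.37 to 1.14), whereas the cardioMRKO hearts differed by 0.53 with overlap (95% interval 0.15 to 0.92). The genotype difference was -0.31 at 1 month (SE 0.18, 95% interval -0.69 to 0.08, limma adjusted p = 0.916) and -0.52 at 2 months (95% interval -0.91 to -0.14), and its average over both ages was -0.42 (95% interval -0.69 to -0.14). The cardioMRKO replicate with low spike-in signal had the highest level of its group, -2.43 against -3.19 to -2.96, and without both low arrays the difference at 2 months was -0.61.

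The second Adra1a probe, A_51_P447229, gave -0.15 at 1 month (95% interval -0.65 to 0.36) and -0.60 at 2 months (95% interval -1.11 to -0.09), where all 4 cardioMRKO hearts lay below all 4 controls. Its age differences were 1.08 in MRflox and 0.63 in cardioMRKO hearts, with no overlap in either. Gpx3, a secreted glutathione peroxidase, had the level most like Adra1a (r = 0.963), followed by Nampt (r = 0.914), an enzyme of NAD synthesis, and Zc3h14 (r = 0.905). Gpx3 and Nampt were also highest in MRflox hearts at 2 months, with mean levels of 4.60 and 4.29.

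Adra1b varied little. The signals of its brighter probe, A_52_P639048, lay between 8462 and 15575 over the 16 arrays, and its levels were 4.36 ± 0.10 and 4.21 ± 0.11 in MRflox and cardioMRKO hearts at 1 month and 4.14 ± 0.25 and 3.89 ± 0.25 at 2 months (SD, n = 4). Groups overlapped in every comparison. The genotype difference was -0.14 at 1 month (SE 0.14, 95% interval -0.44 to 0.15, limma adjusted p = 1) and -0.25 at 2 months (95% interval -0.55 to 0.05), and the age differences were -0.22 in MRflox and -0.32 in cardioMRKO hearts (95% interval -0.62 to -0.03). Its second probe gave 0.04 at 2 months (95% interval -0.53 to 0.61), with the highest level of all its arrays, -0.38, on the cardioMRKO replicate with low spike-in signal.

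**Figure D3:**
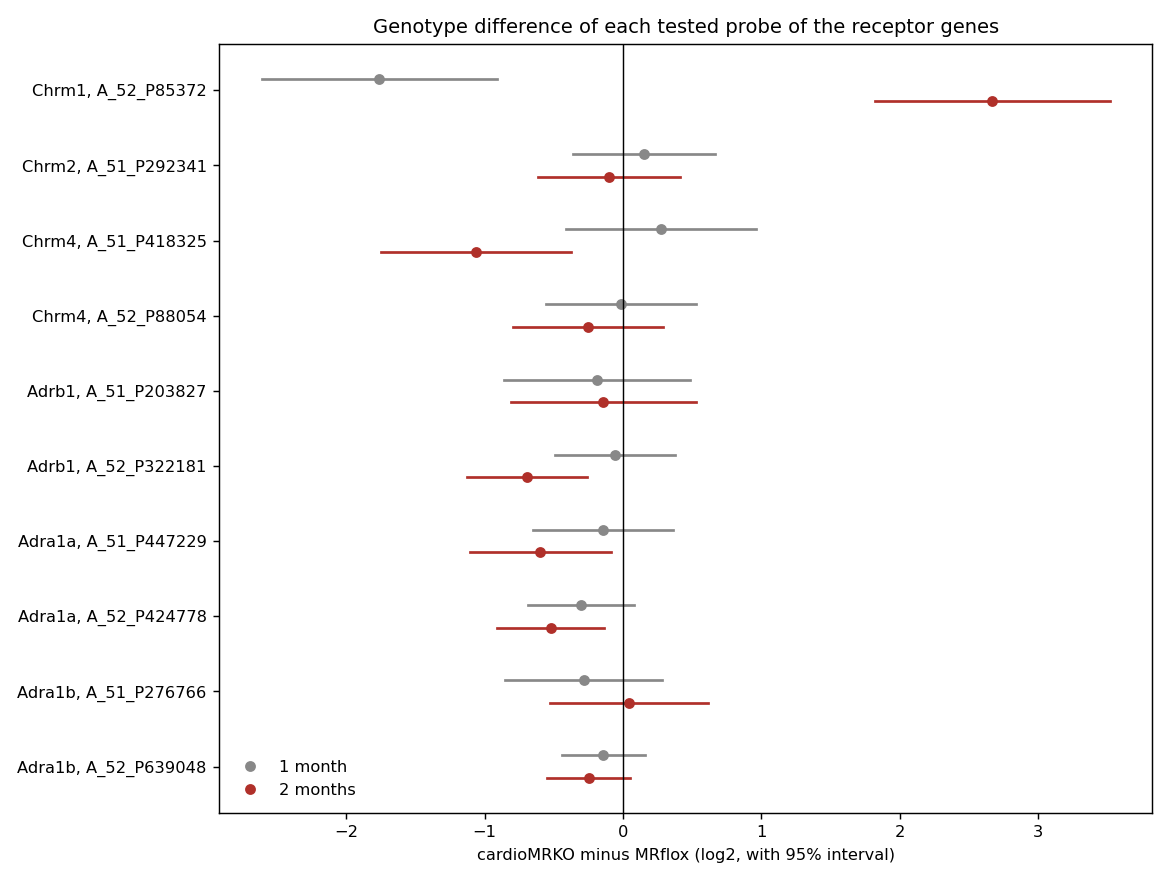
Genotype difference, cardioMRKO minus MRflox (log2), of each of the 10 tested receptor probes at 1 month (grey) and 2 months (red), as points with 95% intervals from the limma fit. The Chrm1 probe lies at -1.76 and 2.67, on opposite sides of 0, and every other probe lies between -1.06 and 0.27.

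Counted over the genes, 0 of the 6 tested receptors passed the limma test between genotypes at 1 month, where 0.0947% of all genes did, and 1 of 6 had an unadjusted p under 0.05 (5.92% of all genes). The groups did not overlap for 1 of 6 (Chrm1, lower), against 8.07% of all genes. At 2 months Chrm1 met the same threshold and so did 3.57% of all genes. There the groups did not overlap for 2 of 6 (Chrm1 higher, Adrb1 lower), against 10.1%. For the difference of the genotype differences Chrm1 alone of the 6 met it, against 0.753% of all genes, and for the average of the genotype differences none did, against 1.2%. Between ages, 3 of 6 met it in MRflox hearts (Chrm4 and Adra1a higher, Chrm1 lower), against 22.7%, and 1 of 6 in cardioMRKO hearts (Chrm1), against 10.2%. Groups did not overlap between ages for 2 of 6 in MRflox hearts (Adra1a higher, Chrm1 lower), against 28% of all genes, and for 3 of 6 in cardioMRKO hearts (Chrm1 and Chrm4 higher, Adrb1 lower), against 20.1%. Since the genes were picked with the values of these groups known, nothing is read from any of these counts, including those at 1 month. At 2 months the genotype difference was below 0 in 5 of the 6 genes with a median of -0.25, and the median over all genes was -0.08.

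Promoter sequences were available for 5 of the 7 genes from RefSeq (GRCm38.p6), as the 250 bases before each annotated start, and none was given for Chrm1 and Adra1a. Adrb1 and Chrm2 are shown because Adrb1 was lower in older cardioMRKO hearts on 1 probe and Chrm2, the main muscarinic receptor, overlapped between groups throughout. Both lie on the plus strand, Adrb1 at chr19:56721867-56722116 and Chrm2 at chr6:36387834-36388083. Capitals mark the GC box (GGGCGG or CCGCCC).
Adrb1: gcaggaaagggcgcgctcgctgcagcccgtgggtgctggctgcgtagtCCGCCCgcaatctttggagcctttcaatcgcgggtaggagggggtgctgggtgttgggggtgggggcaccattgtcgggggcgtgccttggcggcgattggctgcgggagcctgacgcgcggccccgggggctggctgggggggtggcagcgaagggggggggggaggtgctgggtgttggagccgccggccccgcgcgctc
Chrm2: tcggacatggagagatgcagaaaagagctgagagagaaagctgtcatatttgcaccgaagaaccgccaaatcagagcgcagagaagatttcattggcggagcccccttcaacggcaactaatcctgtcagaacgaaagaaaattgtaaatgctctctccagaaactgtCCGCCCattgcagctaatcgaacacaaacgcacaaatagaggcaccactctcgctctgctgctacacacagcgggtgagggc

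The GC content of these windows was 74% for Adrb1 and 50% for Chrm2, against a median of 52.4% over 32851 promoter windows of the same length. A GC box was present in 32.7% of all windows. The short site bound by steroid hormone receptors such as MR (AGAACA or TGTTCT, either strand) was found in 0 of the 6 windows of these 5 genes and in 16.1% of all windows. The full element, AGAACA and TGTTCT separated by any 3 bases, was in 0 of 6 and in 3 of all windows, and the cyclic AMP response element TGACGTCA was in 0 of 6 and in 1.55% of all windows. These letters are simply not in these windows, and elements elsewhere were not searched.

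The other adrenergic and muscarinic receptors were tested in every comparison. Of 7 further genes, 5 were tested. Chrm5 was above background on 1 of 4 arrays in each 2-month group and on none at 1 month, and no probe was matched to Adrb3. None of the 5 passed the limma test between genotypes at 1 month, where 0 had an unadjusted p under 0.05 (5.92% of all genes), or at 2 months, where 3 had (18.9% of all genes). At 2 months the groups did not overlap for 3 of the 5, each lower in cardioMRKO hearts. Of all genes 10.1% did not overlap there, 7.19% being lower. The α2 receptors restrain noradrenaline release from nerve endings. Adra2b differed by -0.75 at 2 months (limma adjusted p = 0.0677) and Adra2c by -0.45 (adjusted p = 0.142). For each, all 4 cardioMRKO hearts lay below all 4 controls. The Adra2b probe was dim and at 2 months was above background on 4 of 4 MRflox and 2 of 4 cardioMRKO arrays. It entered the tests only through those MRflox hearts, so its difference is a description. On its brightest probe Adra2a differed by -0.70 with overlap (adjusted p = 0.641). Its probe A_51_P423000 differed by -0.36 without overlap, and A_52_P67493 by -0.34 with overlap. The mean level of 14 autonomic neuron markers was lower at 2 months without overlap, -5.82 to -5.09 in cardioMRKO against -4.86 to -4.55 in MRflox. Only 3 of the 14 were above background on all arrays and 2 were on none, so this mean includes values at background. Of the 10 tested markers, 0 passed the limma test between genotypes at that age. The part of nerve cells in these differences was not tested. Adra1d, the remaining α1 receptor, differed by -0.40 at 2 months (limma adjusted p = 0.192), with all 4 cardioMRKO hearts below all 4 controls. Before scaling, the signals of Adra1d, Adra2b and Adra2c overlapped between genotypes at that age. Those of Adra1d ranged from 190 to 246 in MRflox and from 138 to 367 in cardioMRKO hearts.

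Between ages more of these receptors passed. In MRflox hearts 3 of the 5 rose, where 22.7% of all genes passed: Adra1d by 0.86 (SE 0.16, limma adjusted p = 0.00187), Adra2b by 0.81 (SE 0.21, adjusted p = 0.0135) and Adra2a by 2.28 (SE 0.75, adjusted p = 0.0413). In cardioMRKO hearts, where 10.2% of all genes passed, only Adra1d of the 5 did, with a rise of 0.55 (SE 0.16, limma adjusted p = 0.0428). The Adra1d signals were 133, 195, 138 and 108 in the younger and 221, 246, 190 and 208 in the older MRflox hearts, and after scaling no older heart overlapped with a younger 1. Adra2a was dim and its other 2 probes differed by 1.86 and 0.63 in MRflox hearts. The Adra2a probe used was above background on 2 of 4 arrays in each 1-month group, and entered the tests only through the older hearts. Adra2b was above background on 2 of 4 younger and 4 of 4 older MRflox arrays, and on 3 and 2 of 4 in cardioMRKO hearts. It entered the tests only through the older MRflox hearts, where it was highest. The calls on Adra2a and Adra2b are therefore descriptions. The call on Adra1d in cardioMRKO hearts was kept under 10 of 28 alternatives (limma adjusted p up to 0.123), that on Adra2a under 14 of 27 (up to 0.112) and that on Adra2b under 26 of 27 (up to 0.117, with quantile normalization). The Adra2b age difference was -0.08 in cardioMRKO hearts (95% interval -0.53 to 0.37), but the difference between genotypes in the age change, -0.89, did not pass the test (limma adjusted p = 0.241).

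**Figure D4:**
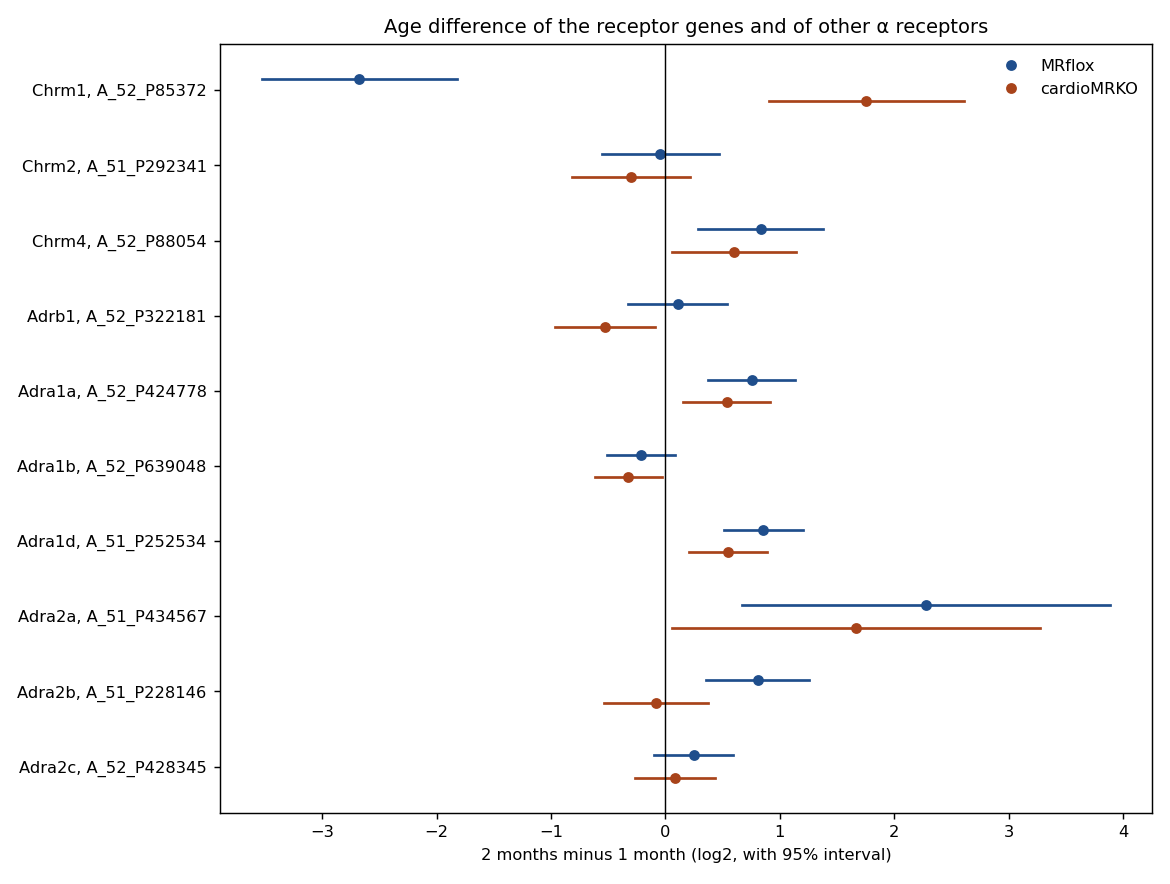
Age difference, 2 months minus 1 month (log2), of the 6 tested receptor genes and of Adra1d, Adra2a, Adra2b and Adra2c, in MRflox (blue) and cardioMRKO hearts (brown), as points with 95% intervals. Chrm1 lies at -2.67 in MRflox and 1.76 in cardioMRKO hearts, and the points of Chrm4, Adra1a, Adra1d, Adra2a and Adra2c lie above 0 in both genotypes. For Adra2c both intervals include 0.

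Some marker genes of other cells also passed the limma test between ages, where 22.7% of all genes passed in MRflox and 10.2% in cardioMRKO hearts. Of 10 tested autonomic neuron markers 3 (Th, Dbh and Chat) rose in MRflox and 1 (Chat) in cardioMRKO hearts. The mean level of all 14 ranged from -6.05 to -4.88 in the younger and from -4.86 to -4.55 in the older MRflox hearts, without overlap, and from -6.14 to -5.18 and from -5.82 to -5.09 in cardioMRKO hearts, with overlap. Of the 14, 3 were above background on all arrays and 2, Chrna3 and Chrnb4, on none. Of 6 lung epithelium markers 5 rose in MRflox hearts and none passed in cardioMRKO hearts, with mean levels from -6.16 to 2.93 in the younger and from 2.25 to 5.47 in the older MRflox hearts, and from -5.88 to 2.05 and from 0.19 to 2.94 in cardioMRKO hearts. None of 5 adipocyte markers passed, although their mean lay between 3.08 and 3.98 in the younger and between 4.10 and 5.18 in the older MRflox hearts. Of 5 fibroblast markers 2 (Col1a1 and Lum) fell in each genotype, and their mean lay between 3.66 and 3.79 in the younger and 3.26 and 3.52 in the older MRflox hearts, and between 3.68 and 3.90 and 3.15 and 3.39 in cardioMRKO hearts. The mean of 5 endothelial markers lay between 2.34 and 2.61 in the younger and 2.03 and 2.29 in the older MRflox hearts, and 1 of them, Cdh5, fell in cardioMRKO hearts. Of 5 smooth muscle markers 2 fell in MRflox and 1 in cardioMRKO hearts, and of 5 leukocyte markers 2 and 1 rose. The part of these cells in the age differences of the receptors was not tested.

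Beyond the receptors, 10 lists of 184 genes covering the autonomic pathway were counted, including the 7 further receptors. Probes for 181 of them were on the array and 164 genes were tested. Between genotypes at 1 month 0 of 164 passed the limma test (0.0947% of all genes) and 11 had an unadjusted p under 0.05 (5.92% of all genes). At 2 months 1 rose and 2 fell (1.83%, against 3.57% of all genes), and 38 had an unadjusted p under 0.05 (18.9% of all genes). For the average of the genotype differences 1 rose and 3 fell (2.44%, against 1.2% of all genes). There 29 had an unadjusted p under 0.05 (13.9% of all genes). For the difference of the genotype differences 0 of 164 passed (0.753% of all genes) and 15 had an unadjusted p under 0.05 (10.8% of all genes). The median difference of the lists was -0.06 at 1 month, where that of all genes was 0.00, and -0.08 at 2 months, where that of all genes was -0.08.

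Among transmitter genes, Maob, the mitochondrial monoamine oxidase that degrades amines, was lower in cardioMRKO hearts. Its level was 2.89 ± 0.08 and 2.41 ± 0.13 in MRflox and cardioMRKO hearts at 1 month and 3.55 ± 0.09 and 2.71 ± 0.11 at 2 months (SD, n = 4). The groups did not overlap at either age. It fell by 0.85 at 2 months (-0.85, SE 0.09, limma adjusted p = 0.00025) and by 0.66 on average over both ages (-0.66, adjusted p = 0.000154), and these calls were kept under all 28 and all 27 alternatives run for them. At 1 month the difference was -0.48 (adjusted p = 0.0901). Pnmt, which makes adrenaline from noradrenaline, fell on average by 0.54 (-0.54, SE 0.11, limma adjusted p = 0.0237). This call was lost with no filter on dim probes (limma adjusted p = 0.0591). It was also lost without replicate 1 of MRflox or replicate 3 or 4 of cardioMRKO at 1 month (adjusted p up to 0.0616). The other 14 of the 16 tested transmitter genes did not pass in the average, where 1.2% of all genes passed.

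Of 9 tested nicotinic receptor subunits, the ion channels that acetylcholine opens in ganglia and skeletal muscle, 1 rose and 1 fell at 2 months, where 3.57% of all genes passed. Chrna4 was at -4.28 ± 0.28 in MRflox and -3.36 ± 0.34 in cardioMRKO hearts (0.93, SE 0.23, limma adjusted p = 0.0429), and Chrng at -3.68 ± 0.21 and -4.38 ± 0.27 (-0.71, SE 0.15, adjusted p = 0.024). The Chrna4 call was kept under 13 of 28 alternatives and the Chrng call under 22 of 28. With normexp Chrna4 differed by 0.21 (adjusted p = 0.425).

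Downstream of the receptors, Plcb2, a phospholipase C best known from blood cells, fell on average over both ages by 0.51 (-0.51, SE 0.09, limma adjusted p = 0.015), a call lost with the mean of its probes (adjusted p = 0.198). Cacna1g, a T-type calcium channel of pacemaker cells, rose on average by 0.39 (SE 0.08, limma adjusted p = 0.0323) and kept the call under 15 of 27 alternatives. No tested G protein subunit (24), adenylyl cyclase (8), phosphodiesterase (17), receptor kinase, arrestin or RGS protein (20), or gene of protein kinase A, its anchors and targets (34) passed the limma test between genotypes at either age. Unadjusted p was under 0.05 for 1, 1, 0, 1 and 1 of them at 1 month and for 3, 0, 2, 5 and 8 at 2 months, against 5.92% and 18.9% of all genes. The nearest were Gng2, a γ subunit, at -0.67 (adjusted p = 0.0677), and Grk2, the kinase that desensitises β receptors, at -0.30 (adjusted p = 0.08), both at 2 months. Kcnj3, a subunit of the channel opened through Chrm2, differed by -0.31 at 1 month (adjusted p = 0.892).

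**Figure D5:**
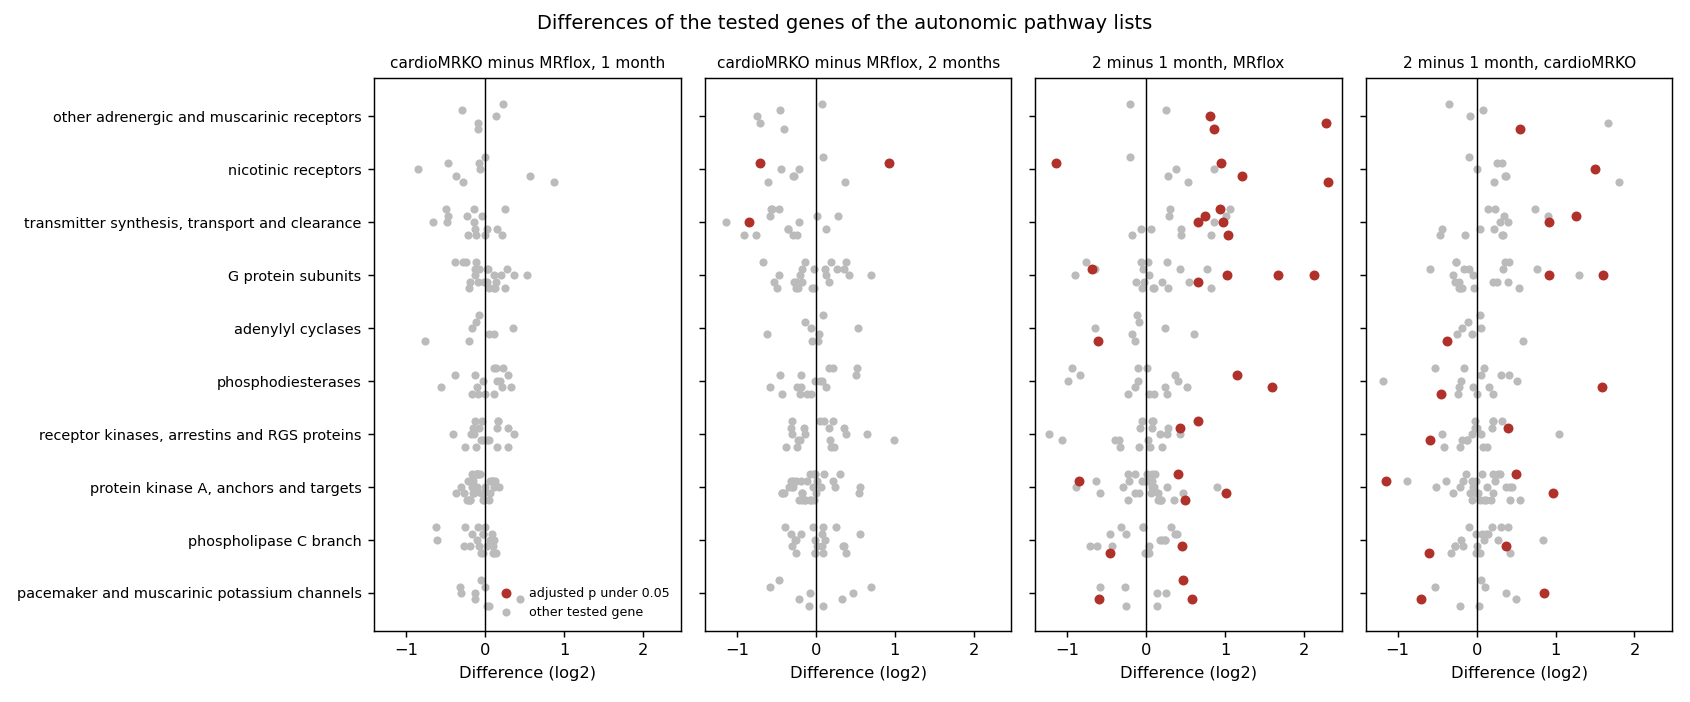
Difference (log2) of each tested gene of the 10 autonomic pathway lists in the genotype comparisons at 1 and 2 months and the age comparisons in MRflox and cardioMRKO hearts, with red points for genes with an adjusted p under 0.05 and grey points for the other tested genes. No point is red at 1 month, 3 are red between genotypes at 2 months, 31 between ages in MRflox and 18 in cardioMRKO hearts.

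More pathway genes passed the limma test between ages than between genotypes, and so did more of all genes. In MRflox hearts 25 of 164 rose and 6 fell (18.9%, against 22.7% of all genes), and in cardioMRKO hearts 12 rose and 6 fell (11%, against 10.2%). Of 16 tested transmitter genes 5 rose in MRflox hearts: Th, which makes the precursor of dopamine (1.04, limma adjusted p = 0.0132), Dbh, which makes noradrenaline (0.93, adjusted p = 0.017), Chat, which makes acetylcholine (0.97, adjusted p = 0.0178), Maob (0.66, adjusted p = 0.00035) and Slc22a3, a transporter that takes up amines (0.74, adjusted p = 0.0405). In cardioMRKO hearts Chat (0.91, limma adjusted p = 0.0449) and Slc22a3 (1.26, adjusted p = 0.00529) rose. The calls in MRflox hearts were kept under 25 of 27 alternatives for Th and for Dbh, 21 of 27 for Chat and 12 of 26 for Slc22a3, and quantile normalization ended these 4 (limma adjusted p = 0.137, 0.102, 0.14 and 0.252), while that of Maob was kept under all 28. In cardioMRKO hearts the Chat call was kept under 11 of 27 and the Slc22a3 call under 26 of 27. With normexp the differences were 0.29 for Th and 0.35 for Chat in MRflox hearts, and 0.11 for Chat and 0.26 for Slc22a3 in cardioMRKO hearts, none of which passed. Th, Dbh and Chat were dim, and above background on 8, 14 and 11 of 16 arrays. They belong to the neuron markers given above.

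Adcy6, 1 of the main adenylyl cyclases of cardiomyocytes, fell with age in both genotypes, by 0.61 in MRflox (-0.61, SE 0.10, limma adjusted p = 0.00113) and by 0.37 in cardioMRKO hearts (-0.37, adjusted p = 0.0353, a call kept under 19 of 28 alternatives). Pkia, an inhibitor of protein kinase A, rose by 1.01 and 0.96 (limma adjusted p = 0.00157 and 0.00475), and Gnb3, a β subunit, by 1.02 and 0.91 (adjusted p = 0.00151 and 0.00657). Kcne1, a subunit of a potassium channel that protein kinase A regulates, fell by 0.86 and 1.14 (-0.86 and -1.14, limma adjusted p = 0.0285 and 0.0131), calls kept under 22 and 28 of 28 alternatives. Cacna1g fell by 0.60 and 0.71 (-0.60 and -0.71, limma adjusted p = 0.00225 and 0.00198). The pacemaker channels Hcn4 and Hcn2 rose in MRflox hearts by 0.59 and 0.47 (limma adjusted p = 0.0388 and 0.0248), calls kept under 18 and 23 of 28 alternatives. With normexp Hcn4 differed by 0.29 (adjusted p = 0.108). Arrb2, an arrestin that ends receptor signalling, fell in cardioMRKO hearts (-0.59, limma adjusted p = 0.0145, kept under 26 of 28). The age comparisons share no arrays with each other, but each shares arrays with the genotype comparisons.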

How the data were processed

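RNA of whole hearts was read on 16 single-colour Agilent arrays, 4 per group. Per the file headers, Feature Extraction 12.0.0.7 made the values and the array design follows mm9, and version 9.5 is named in the submitters' processing notes. Each deposited value is a linear-scale fluorescence intensity: a processed signal with background subtracted, and median signals of spot and local background without correction. The deposited series matrix held the same intensity, with a maximum difference of 0, so no scaling between arrays preceded this work. Depth is set by signal over background, and the number of arrays limits the precision.

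Probes were named through their transcript accession in RefSeq tables, which gave a symbol for 28223 of 41174 probes. Repeated spots were averaged, and a gene was represented by its brightest tested probe. Levels were fitted with limma 3.58.1 in R 4.3.3, with 1 mean per group, 12 residual and 2.17 prior degrees of freedom, and Benjamini-Hochberg adjustment over 20065 genes. The script was tested on simulated data. The receptors and lists were chosen with earlier results of these data known, so no p-value here is independent of that choice. For the 7 receptors p-values are given only between genotypes at 1 month, and for the other receptors and lists in every comparison. Controls were littermates, but the labels do not say which mice shared a litter, and p-values measure the spread between these mice.

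Genes named are the 7 receptors with all probes, other adrenergic and muscarinic receptors, up to 4 genes per pathway list and comparison that passed the test by smallest p (up to 2 others where none did), and the 3 genes most like each receptor. The age difference of Slc22a3 in MRflox hearts was named in addition, after its value was seen. Alternatives were other background corrections, scalings, filters, probe rules, array weights, the replicate number as a block, only the 8 arrays compared, and each array left out. The mean spot signal was not in the columns used, so normexp and the uncorrected values used median signals. A receptor among those counted is not reported here.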

Additional observations from a re-analysis of the deposited data

Results flagged for a closer look

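On the second Adra1a probe, A_51_P447229, replicate 1 of MRflox at 1 month stood apart from the rest of its group. Its level was -4.31, against -3.19 to -3.06 on the other arrays, and the gap was 0.9 of the range of the group. It was the single such array in 48 groups of 4 that were checked, and chance alone marks about 5% of such groups. The Chrm1 genotype difference had opposite signs at the 2 ages, with every cardioMRKO array below every control array at 1 month and above at 2 months. The difference between ages was 4.43 and was not tested.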

How the results depend on the processing

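With normexp background correction, 12 genes passed between genotypes at 1 month, 138 in the average of the genotype differences, 98 in the difference of the differences and 1226 between ages in cardioMRKO hearts, with 6 pathway genes between genotypes at 2 months and 9 between ages in cardioMRKO hearts. Chrm1 then differed by 0.39 at 2 months, and the part of the offset in this was not tested. With no filter on dim probes, 446 genes passed at 2 months, 104 in the average and 96 in the difference of the differences, with 2 pathway genes in the average. With the mean of a gene's probes, 5 pathway genes passed at 2 months and Chrm4 differed by 0.13 at 1 month, with the sign turned. Array weights gave 387 genes at 1 month, 922 in the average, 584 in the difference of the differences and 5439 between ages in cardioMRKO hearts, and 6, 6, 14, 1 and 56 pathway genes at 1 month, at 2 months, in the average, in the difference of the differences and between ages in cardioMRKO hearts. They put Chrm1 at -1.79 at 1 month (limma adjusted p = 0.017) and Chrm4 at 0.0016. The replicate number as a block gave 413 genes in the average and 463 in the difference of the differences, with 6 pathway genes at 2 months and 3 in the difference of the differences, against 240, 151, 3 and 0 without it. Over 24 same-numbered pairs the correlation of deviations ranged from -0.314 to 0.36 (median 0.06, and -0.0147 for other pairs), 10 pairs were over 0.1, and 8 of 16 arrays correlated best with an array of their own number. The labels tie no number to a litter or day and not every pair was over 0.1, so the numbers were not treated as pairs. With the pair of low spike-in arrays at 2 months left out, 31 genes passed at 1 month, 420 at 2 months and 4034 between ages in cardioMRKO hearts, with 1 pathway gene at 2 months and 35 between ages in cardioMRKO hearts. With only the 8 arrays compared, 102 genes passed at 2 months, and 1 pathway gene at each age. The causes of these changes were not tested.

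The share of higher calls at 2 months was 43.8% in the values reported, 25.8% with normexp and 54.2% with the percentile over detected probes. Between ages in MRflox hearts it was 73.6%, and 60.4% with quantile normalization. In cardioMRKO hearts it was 54.8%, against 39.6% with normexp and 65.0% with the percentile over detected probes. At 1 month it was 52.6% and 41.7% with normexp, and in the average 48.3% and 37.0%.

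Leaving out 1 array at a time gave 8 to 25 genes at 1 month (8 without MRflox replicate 3 of that age), 311 to 888 at 2 months (311 without MRflox replicate 1 and 327 without cardioMRKO replicate 2 of that age), 125 to 240 in the average (125 without cardioMRKO replicate 3 at 1 month), 66 to 277 in the difference of the differences (66 without MRflox replicate 3 at 1 month, 277 without cardioMRKO replicate 1 at 2 months), 3382 to 5294 between ages in MRflox and 1246 to 2926 in cardioMRKO hearts (1246 without cardioMRKO replicate 2 at 1 month). Pathway genes numbered 0 at 1 month, 1 to 6 at 2 months, 2 to 5 in the average, 0 to 1 in the difference of the differences, 22 to 38 between ages in MRflox and 11 to 30 in cardioMRKO hearts. Chrm1 ranged from -1.95 to -1.53 at 1 month and from 2.30 to 3.04 at 2 months. The differences near 0 at 1 month changed sign for Chrm4, which ranged from -0.22 to 0.16 (0.16, 0.069 and 0.10 without MRflox replicate 1 and cardioMRKO replicates 2 and 4), and for Adrb1, which ranged from -0.24 to 0.032 (0.011 and 0.032 without MRflox replicates 3 and 4). Receptor values and counts under the alternatives were sorted by a set rule. By it 1218 stayed the same, 89 moved, 7 reversed and 1 newly passed. At 1 month receptor values stayed the same when they kept their sign and side of the threshold. In the other comparisons they did so when the change was within their spread. There a change of sign counted as reversed only for values that had met the threshold. Chrm2 at 2 months, from -0.36 to 0.08, thus counted as the same. Counts stayed the same within a fixed fold. Keeping only probes above background on all arrays left no value for Chrm1 or Chrm4.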
